A study of Mus musculus with 6 samples.

Results

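The pre-B cell receptor is the signalling complex that developing B cells display before they make a light chain. It pairs the immunoglobulin mu heavy chain with a surrogate light chain, and it signals through the CD79A and CD79B chains, whose cytoplasmic tails recruit the kinase SYK. SYK and the kinase BTK act through the adaptor BLNK, and together they drive a burst of division and then the passage to the small pre-B stage in the bone marrow. The 9 genes described here encode the surrogate light chain (Vpreb1, Vpreb2 and Igll1), the related Vpreb3, the signalling chains (Cd79a and Cd79b), the kinases (Syk and Btk) and the adaptor (Blnk). They were chosen by name from the 21307 rows of the deposited table. Of the 9, 8 were found under their own names, and Syk was found under Sykb, which RefSeq lists as its synonym.

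Messenger RNA was sequenced from 3 libraries of cells treated with 4-hydroxytamoxifen (4-OHT) and 3 libraries of cells treated with ethanol. All 6 libraries came from bone marrow B cells of pretumoral mice 6 to 8 weeks old on a C57BL/6 x 129S1/SvlmJ background. Every mouse, controls included, carried the Eµ-myc transgene, which drives MYC from an immunoglobulin enhancer, together with loxP-flanked Prmt5 and a tamoxifen-inducible Cre (CreER). The 4-OHT cells received 4-OHT at 50 nM for 24 h to delete Prmt5, the control cells received ethanol, and both were then washed, cultured for 5 days more and grown with 5 ng/µl interleukin 7. The promoter that drives CreER, and whether the libraries of a condition came from separate mice, are not stated by the labels. No cells without Cre or without the floxed alleles were treated with 4-OHT, so the loss of Prmt5 and other effects of 4-OHT or of active Cre cannot be told apart. The libraries are titled PT for 4-OHT and WT for ethanol, and the groups here follow the treatment in the sample characteristics and in the table itself.

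The table gives 1 FPKM value (mapped fragments relative to transcript length and library size) per gene and condition, pooled by the authors over 3 libraries. There are no replicate values, so differences are given by size with neither tests nor p-values, and read depth is unknown. Each difference is a log2 ratio, 4-OHT over ethanol, taken after adding 1 FPKM to both values, which understates the change of low genes. A row was compared if its 2 values averaged 1 FPKM or more and neither was 0, which left 10856 rows with a median log2 ratio of -0.07, and all 9 genes passed. Prmt5, the deleted gene, stood at 5.71 FPKM in 4-OHT and 41.6 FPKM in ethanol, and Myc stood at 213 FPKM in 4-OHT and 402 FPKM in ethanol. The B-cell label fitted the markers in part. All 12 genes of a list of B-lineage genes had a value above 0 in both conditions, though Ms4a1 was under 1 FPKM in 4-OHT. But marker genes of macrophages, neutrophils, platelets and stromal cells were also present, and higher in 4-OHT.

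Vpreb1 and Vpreb2 encode the V-like part of the surrogate light chain and are near-identical copies, and their start regions are printed to show the likeness. The sequences are RefSeq windows on GRCm38.p6 that run from 250 bases before to 50 bases after the annotated start. They lie at chr16:16869206-16869505 on the minus strand for Vpreb1 and at chr16:17980315-17980614 on the plus strand for Vpreb2. Capitals mark the bases that the windows share in unbroken runs of at least 20.
Vpreb1: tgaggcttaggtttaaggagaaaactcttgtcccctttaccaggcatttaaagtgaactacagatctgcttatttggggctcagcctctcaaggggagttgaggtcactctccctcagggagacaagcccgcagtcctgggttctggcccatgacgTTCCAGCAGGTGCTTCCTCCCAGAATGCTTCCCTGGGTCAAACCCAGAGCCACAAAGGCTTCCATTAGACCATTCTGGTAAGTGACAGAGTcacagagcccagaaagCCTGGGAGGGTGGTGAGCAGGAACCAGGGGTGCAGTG
Vpreb2: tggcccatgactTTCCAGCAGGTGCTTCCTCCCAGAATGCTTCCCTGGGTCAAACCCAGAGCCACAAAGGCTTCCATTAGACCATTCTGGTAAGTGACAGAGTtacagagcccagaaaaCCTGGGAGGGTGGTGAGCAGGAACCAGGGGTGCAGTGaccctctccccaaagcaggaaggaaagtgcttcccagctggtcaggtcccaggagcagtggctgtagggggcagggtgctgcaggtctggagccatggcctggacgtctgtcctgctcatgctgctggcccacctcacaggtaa
The windows aligned over 156 bases with 3 mismatches, an identity of 98.1%. The shared stretch lay 144 bases further before the annotated start in Vpreb2 than in Vpreb1, so in Vpreb2 it lay wholly before that start. The 50 bases after the annotated start of Vpreb2 begin with the start codon ATG, and its deposited locus spans only 516 bases. The offset thus depends on where the annotation sets the start, and it does not show that the promoters are laid out differently. In the GENCODE M21 transcripts, Vpreb1 (766 bases) and Vpreb2 (759 bases) were identical at 739 of 759 aligned positions. Of all windows of 50 bases in the Vpreb1 transcript, 32.5% occurred unchanged in Vpreb2, and of windows of 100 bases 14.5% did. Some fragments could therefore be assigned to either gene, and how the authors treated them is not stated by the labels. The transcript of Vpreb1 aligned with that of Vpreb3 over 26 bases and with that of Igll1 over 34 bases, so those genes share no long stretch with it.

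Igll1, which encodes lambda 5, the constant-like part of the surrogate light chain, and Cd79a are the other receptor genes whose ratios were the lowest, and their start regions are printed for the motifs of B-cell transcription factors. Both genes are textbook targets of the factors EBF1 and E2A. The windows lie at chr16:16863936-16864235 on the minus strand for Igll1 and at chr7:24897247-24897546 on the plus strand for Cd79a, on GRCm38.p6. Capitals mark CAGNTG on either strand, a form of the E-box CANNTG that E2A binds.
Igll1: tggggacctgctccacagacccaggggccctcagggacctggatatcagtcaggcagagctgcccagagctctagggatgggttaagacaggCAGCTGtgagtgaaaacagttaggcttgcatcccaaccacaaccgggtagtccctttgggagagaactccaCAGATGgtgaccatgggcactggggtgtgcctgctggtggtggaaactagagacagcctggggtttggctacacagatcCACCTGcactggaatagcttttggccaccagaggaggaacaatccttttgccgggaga
Cd79a: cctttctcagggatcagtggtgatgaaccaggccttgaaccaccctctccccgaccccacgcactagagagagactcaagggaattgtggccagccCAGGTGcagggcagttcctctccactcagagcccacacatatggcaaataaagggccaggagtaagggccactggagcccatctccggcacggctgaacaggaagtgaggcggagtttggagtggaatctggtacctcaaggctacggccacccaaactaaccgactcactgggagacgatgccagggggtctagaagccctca
Igll1 held 3 such E-boxes, whose first bases lay at -158, -87 and -8 from the start, and Cd79a held 1, at -154. A match to CAGNTG is common: 51.4% of the 32851 mouse windows of this length held one, and so did 7 of the 8 receptor genes that have a window in the table, all but Btk. Syk has 2 windows and was counted if either held the motif. An exact match to the EBF core CCCNNGGG was found in 13.7% of all windows and in 1 of the 8 genes, Igll1, at -231. Sites that differ from this core would be missed, so its absence from the Cd79a window does not show that an EBF1 site is lacking. The PU.1 core GAGGAA was found in 28.3% of all windows and in 6 of the 8 genes, with Vpreb3 and Blnk the exceptions. The Ikaros core TGGGAA (25.6% of all windows) was found in Vpreb2 and Btk, and the RUNX core TGTGGT (16.8%) in Igll1 and Vpreb3. Relative to the shared stretch, the Vpreb2 window is cut 144 bases further downstream than that of Vpreb1. The Ikaros match of Vpreb2, at -64, lies beyond the part that the Vpreb1 window covers, so the motifs of these windows are not like for like. Neither the MYC E-box CACGTG (7.15% of all windows), which is also a CANNTG, nor the TATA box TATAAA (13.6%) was found in any of the 8. Both strands were searched for each motif, and these matches describe letters in a window and not binding.

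The surrogate light chain genes were much lower in 4-OHT. Vpreb1 (chromosome 16, 16868494 to 16869348 on mm9) stood at 45.7 FPKM in 4-OHT and 180.5 FPKM in ethanol, 3.88-fold lower. Vpreb2 (chromosome 16, 17980658 to 17981173) stood at 42.0 FPKM in 4-OHT and 272 FPKM in ethanol, 6.35-fold lower. Igll1 (chromosome 16, 16860764 to 16864078) stood at 61.0 FPKM in 4-OHT and 206 FPKM in ethanol, 3.34-fold lower. The log2 ratios were -1.96 for Vpreb1, -2.67 for Vpreb2 and -1.74 for Igll1, the 17th, 3rd and 27th lowest of all 10856 compared rows. In bulk samples such as these, fewer pre-B cells and less RNA per pre-B cell cannot be told apart.

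Because Vpreb1 and Vpreb2 can share fragments, their sum is given as well. FPKM is divided by the length of each gene, so a fragment moved between them would also change the sum. The sum was 87.7 FPKM in 4-OHT and 452 FPKM in ethanol, 5.11-fold lower (log2 ratio -2.35). The level of Vpreb2 relative to Vpreb1 was 0.918 in 4-OHT and 1.51 in ethanol. The locus of Vpreb2 in the table spans 516 bases, against 855 for Vpreb1, and FPKM is less stable for short transcripts. The sum of Vpreb1, Vpreb2 and Igll1 was 149 FPKM in 4-OHT and 659 FPKM in ethanol, 4.40-fold lower.

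Vpreb3, which encodes a VpreB-like protein that binds newly made mu heavy chains inside the cell, departed less from its ethanol value. Vpreb3 (chromosome 10, 75411057 to 75412391) stood at 242 FPKM in 4-OHT and 509 FPKM in ethanol, a log2 ratio of -1.07. It passed the 2-fold line narrowly, and with the conditions scaled by the median of ratios its log2 ratio was -0.99. Vpreb3 had the highest level of the 9 genes in both conditions.

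**Figure D1:**
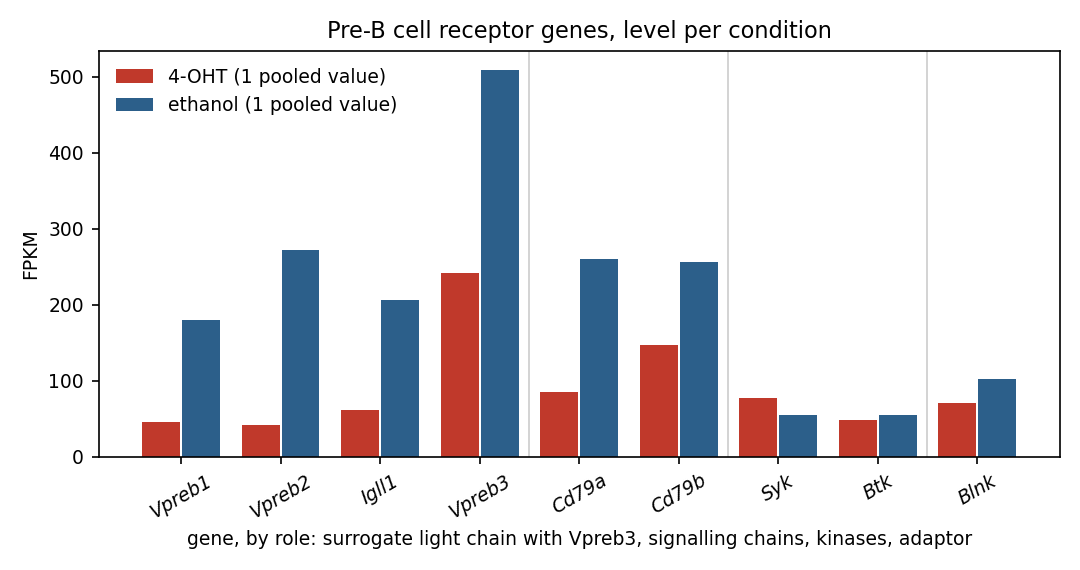
Bars give the pooled FPKM of each gene in 4-OHT (red, left) and ethanol (blue, right), 1 value per condition and no error bars, with genes ordered by role. Vpreb1, Vpreb2 and Igll1 lie between 42.0 and 61.0 FPKM in 4-OHT and between 180.5 and 272 FPKM in ethanol, whereas Syk is the one gene with the taller 4-OHT bar.

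The signalling chains went apart from each other. CD79A and CD79B form a dimer whose tails carry the tyrosine motifs that SYK binds once they are phosphorylated. Cd79a (chromosome 7, 25682530 to 25687216) stood at 85.6 FPKM in 4-OHT and 260 FPKM in ethanol, 3.01-fold lower (log2 ratio -1.59). Cd79b (chromosome 11, 106172655 to 106175843) stood at 147 FPKM in 4-OHT and 256 FPKM in ethanol, 1.74-fold lower (log2 ratio -0.80). The level of Cd79b relative to Cd79a was 1.71 in 4-OHT and 0.985 in ethanol, so transcripts of the dimer's partners were near equal in ethanol and not in 4-OHT.

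The adaptor and the kinases differed little between the conditions, and one of them was higher in 4-OHT. Blnk (chromosome 19, 41003417 to 41069025), which encodes the scaffold that SYK phosphorylates, stood at 70.7 FPKM in 4-OHT and 102 FPKM in ethanol, 1.44-fold lower (log2 ratio -0.53). Btk (chromosome X, 131076880 to 131117679), which encodes the Tec-family kinase that activates phospholipase C gamma, stood at 48.2 FPKM in 4-OHT and 55.3 FPKM in ethanol (log2 ratio -0.19). Syk, listed as Sykb (chromosome 13, 52678806 to 52744161), stood at 77.4 FPKM in 4-OHT and 54.5 FPKM in ethanol, 1.41-fold higher (log2 ratio 0.50). Of the compared rows, 15.9% had a lower ratio than Blnk, 40.1% a lower ratio than Btk and 78.0% a lower ratio than Syk. Blnk and Btk were lower in 4-OHT as deposited but higher relative to B-lineage genes, as described below. On that scale the median of all compared rows was 0.73, above both genes.

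In all, 8 of the 9 genes were lower in 4-OHT, and 5 were at least 2-fold lower (Vpreb1, Vpreb2, Vpreb3, Igll1 and Cd79a). Among all 10856 compared rows, 5981 were lower, 280 at least 2-fold lower (2.58%) and 1124 at least 2-fold higher (10.4%). None of the 9 was at least 2-fold higher, and the median of the 9 log2 ratios was -1.07. Each of the 9 had a mean above 50 FPKM, and among the 1340 rows that averaged 50 FPKM or more, a limit set after the values were seen, 46 were at least 2-fold lower (3.43%) and 160 at least 2-fold higher (11.9%). At a threshold of 1.5-fold, 6 of the 9 were lower and 0 higher, against 12.8% and 19.5% of all compared rows. These genes were chosen with results of these data known, so the counts describe them and test nothing.

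**Figure D2:**
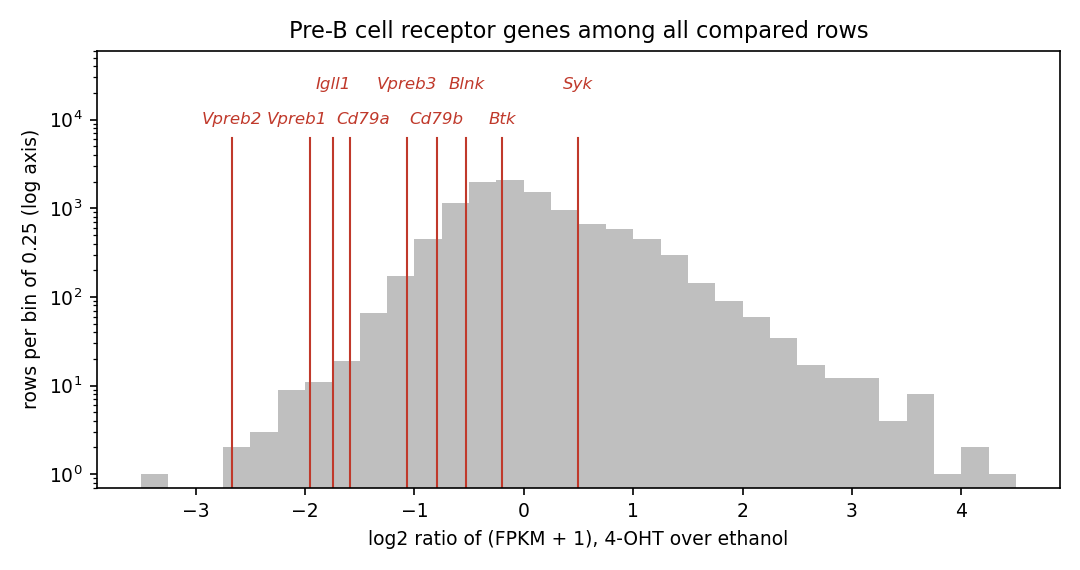
The grey histogram counts the 10856 compared rows by log2 ratio of FPKM + 1 (4-OHT over ethanol, bins of 0.25, log count axis), and red lines mark the 9 genes. Vpreb2 at -2.67 lies at the lower edge of the distribution, Blnk at -0.53 and Btk at -0.19 lie in its body, and Syk at 0.50 lies above the median of -0.07.

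The order of the levels within the pathway was not the same in both conditions. FPKM is scaled to transcript length, so levels of different genes can be set side by side, with the limit given above for Vpreb1 and Vpreb2. In 4-OHT the order from the highest was Vpreb3, Cd79b, Cd79a, Syk, Blnk, Igll1, Btk, Vpreb1 and Vpreb2, over a range of 5.76-fold. In ethanol it was Vpreb3, Vpreb2, Cd79a, Cd79b, Igll1, Vpreb1, Blnk, Btk and Syk, over a range of 9.34-fold. With no replicates, neighbours at close levels cannot be ranked beyond error, such as Vpreb1 and Vpreb2 in 4-OHT or Cd79a and Cd79b, and Btk and Syk, in ethanol. The level of Syk relative to Igll1 was 1.27 in 4-OHT and 0.264 in ethanol, and that of Blnk relative to Igll1 was 1.16 in 4-OHT and 0.495 in ethanol. Together the 9 genes summed to 819 FPKM in 4-OHT and 1895 FPKM in ethanol.

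Most genes of a list of 12 B-lineage genes were lower in 4-OHT too, and the receptor genes were set against that list. Not every gene on it marks all B-cell stages. Of the 12 genes, 11 were lower and 5 were at least 2-fold lower, against 5981 and 280 of all 10856 compared rows. Their median log2 ratio was -0.79. They included Pou2af1, a B-cell transcription coactivator gene, at 100.1 FPKM in 4-OHT and 208 FPKM in ethanol. Ebf1, Spib and Ms4a1 were also at least 2-fold lower, Ms4a1 near the floor at 0.603 FPKM in 4-OHT and 2.32 FPKM in ethanol. Bank1 was low as well, at 1.57 FPKM in 4-OHT and 3.18 FPKM in ethanol. Cd180 was the 1 gene of the list that was higher in 4-OHT (log2 ratio 0.81). Relative to the median of this list, the log2 ratios were -1.87 for Vpreb2, -1.16 for Vpreb1, -0.95 for Igll1, -0.80 for Cd79a and -0.27 for Vpreb3. Cd79b was at 0.00 on that scale, so it matched the median of the B-lineage genes. Blnk, Btk and Syk were above it, at 0.27, 0.60 and 1.29. This scaling adds 0.79 to every log2 ratio and puts the median of all compared rows at 0.73, above Blnk and Btk. On it 2 of the 9 genes stayed at least 2-fold lower and Syk was more than 2-fold higher. Of all 10856 compared rows, 23 were at least 2-fold lower on it and 3571 higher. The list median itself moved with the settings, from -0.72 with a minimum mean of 5 FPKM to -0.97 by the authors' log2 fold changes. Values near 0 or near the 2-fold line on this scale, such as those of Cd79b and Igll1, are therefore not firm.

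**Figure D3:**
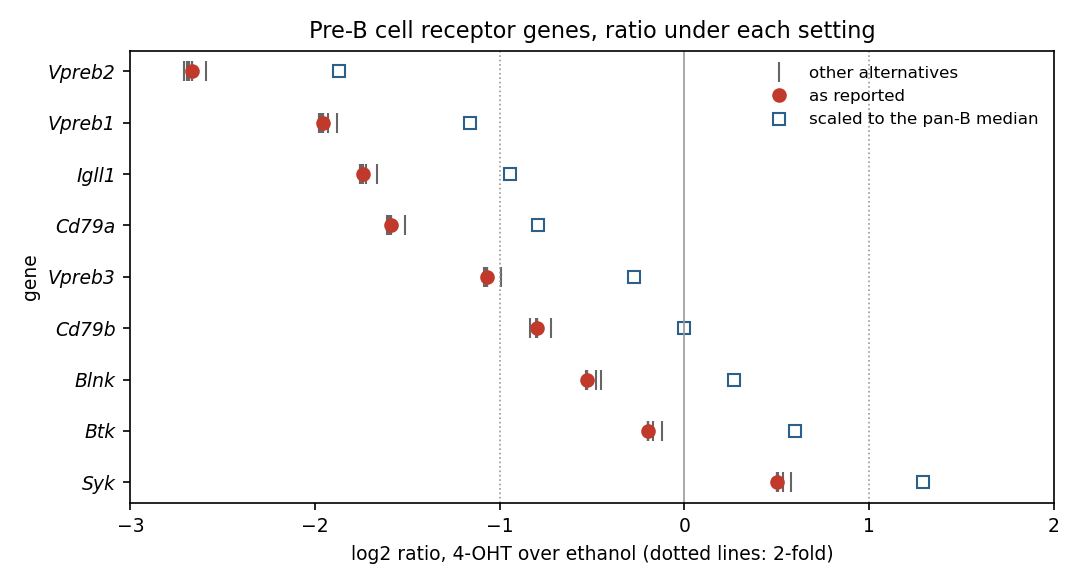
Each row gives the log2 ratio (4-OHT over ethanol) of one gene as reported (red circle), after scaling to the median of 12 B-lineage (pan-B) genes (blue square) and under the other alternatives (grey ticks), with dotted lines at 2-fold. The red circles run from -2.67 for Vpreb2 to 0.50 for Syk. The squares of Blnk, Btk and Syk lie above 0, as does the median of all compared rows on that scale, at 0.73.

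Syk and Btk are also used by myeloid cells and platelets, and markers of those cells differed between the conditions. All 11 macrophage markers found in the table were higher in 4-OHT, as were 4875 of all 10856 compared rows. The macrophage markers had a summed level of 1702 FPKM in 4-OHT and 761 FPKM in ethanol and a median log2 ratio of 1.15. Cd68 and C1qb were the most abundant of these markers, at 324 and 366 FPKM in 4-OHT, against 146 and 162 FPKM in ethanol. All 8 neutrophil markers found were at least 2-fold higher, with a sum of 3338 FPKM in 4-OHT and 353 FPKM in ethanol, and a median log2 ratio of 3.22. The 7 megakaryocyte markers summed to 824 FPKM in 4-OHT and 223 FPKM in ethanol. No marker of these 3 lists was at 0 in either condition. The part of these cells in the values of Syk, Btk and the other genes was not tested.

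The other marker lists were smaller or lower. The 8 mast cell and basophil markers summed to 334 FPKM in 4-OHT and 93.5 FPKM in ethanol, and the 9 stromal and endothelial markers to 496 FPKM in 4-OHT and 43.6 FPKM in ethanol. The 8 dendritic cell markers summed to 105 FPKM in 4-OHT and 59.3 FPKM in ethanol, and 5 of them were under 1 FPKM in both conditions. Most of that sum was Bst2 (74.6 FPKM in 4-OHT and 43.8 FPKM in ethanol) and Itgax (26.8 and 11.4 FPKM). Flt3 was lower in 4-OHT, at 1.53 FPKM, against 3.20 FPKM in ethanol. The 8 T cell markers summed to 8.94 FPKM in 4-OHT and 3.40 FPKM in ethanol, and the 7 natural killer cell markers to 18.4 FPKM in 4-OHT and 4.86 FPKM in ethanol. In each of these lists 4 markers were under 1 FPKM in both conditions. Nkg7, at 13.6 FPKM in 4-OHT and 1.62 FPKM in ethanol, made up most of the natural killer cell sum in 4-OHT. The 6 erythroid markers found summed to 81.6 FPKM in 4-OHT and 86.6 FPKM in ethanol, most of it Tfrc, which dividing cells use as well, and Car1 was listed at 0 in both conditions.

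Kinases that act beside SYK and BTK followed no common direction. Their median log2 ratio was -0.21. Relative to the B-lineage genes, a list with which theirs shares 1 gene, Blk, it was 0.58, against 0.73 for all compared rows. Of 14 in the list, 2 were at least 2-fold higher and 0 at least 2-fold lower. One was Fgr, a Src-family kinase gene best known from myeloid cells, at 21.8 FPKM in 4-OHT and 6.58 FPKM in ethanol. Src-family genes used by B cells, chosen after their values were seen, included Lyn, Blk and Fyn. Lyn stood at 59.4 FPKM in 4-OHT and 41.0 FPKM in ethanol (log2 ratio 0.52). Blk stood at 26.2 FPKM in 4-OHT and 38.9 FPKM in ethanol (log2 ratio -0.55), and Fyn at 11.4 FPKM in 4-OHT and 16.8 FPKM in ethanol (log2 ratio -0.52). The most abundant of the 14 were Prkcd, a protein kinase C gene, at 115 FPKM in 4-OHT and 61.1 FPKM in ethanol, and Akt1, at 90.8 FPKM in 4-OHT and 103 FPKM in ethanol.

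Adaptors and effectors of the receptor were as mixed. Their median log2 ratio was 0.10, or 0.89 relative to the B-lineage genes, 2 of which are in both lists, against 0.73 for all compared rows. Of 29 in the list, 28 were compared, 2 were at least 2-fold higher and 2 at least 2-fold lower. The lower genes included Rasgrp1, a Ras exchange factor gene, at 5.71 FPKM in 4-OHT and 16.4 FPKM in ethanol. The higher ones were Lcp2, which encodes SLP-76, the relative of BLNK in T cells and myeloid cells, at 23.3 FPKM in 4-OHT and 8.05 FPKM in ethanol, and the transmembrane adaptor gene Lat2, at 59.5 FPKM in 4-OHT and 28.4 FPKM in ethanol. Pik3cd, the phosphoinositide 3-kinase subunit gene of lymphocytes, stood at 117 FPKM in 4-OHT and 214 FPKM in ethanol (log2 ratio -0.87). As deposited, Lcp2 was thus higher in 4-OHT and Blnk lower, and relative to the B-lineage genes both were higher. Blnk still lay below the median of all compared rows on that scale.

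Inhibitors of the receptor were near equal or higher. Their median log2 ratio was -0.01, or 0.79 relative to the B-lineage genes, 2 of which are in both lists, against 0.73 for all compared rows. Of 15 in the list, 2 were at least 2-fold higher and 0 at least 2-fold lower. The higher ones were Ptpn6, which encodes the phosphatase SHP-1, at 104 FPKM in 4-OHT and 39.1 FPKM in ethanol, and the adhesion receptor gene Pecam1, at 34.9 FPKM in 4-OHT and 15.5 FPKM in ethanol. Fcgr2b, the inhibitory Fc receptor gene, stood at 167 FPKM in 4-OHT and 111 FPKM in ethanol. Csk, the kinase that restrains Src-family kinases, was near equal, at 129.9 FPKM in 4-OHT and 131 FPKM in ethanol.

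**Figure D4:**
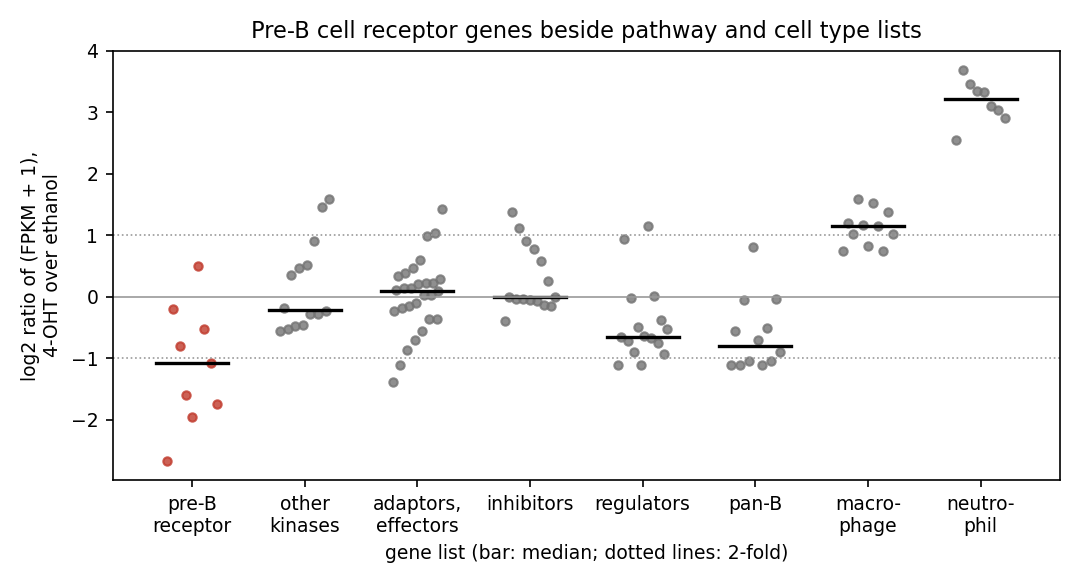
Points give the log2 ratio of FPKM + 1 (4-OHT over ethanol) of each compared gene in 8 lists, and bars give each list's median, with dotted lines at 2-fold. The receptor genes have a median of -1.07 and the 12 B-lineage (pan-B) genes one of -0.79, while the macrophage and neutrophil markers have medians of 1.15 and 3.22, and every list would lie 0.79 higher if scaled to the B-lineage median.

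Transcription factor genes that control the surrogate light chain and its later shutdown were mostly lower in 4-OHT as deposited. Of 16 in the list, 13 were lower and 2 were at least 2-fold lower, against 5981 and 280 of all 10856 compared rows. The median log2 ratio was -0.64, or 0.15 relative to the B-lineage genes, against 0.73 for all compared rows. This list is not independent of the B-lineage list, since Ebf1, Pax5 and Spib, 3 of its genes, are in both. Ebf1, which encodes an activator of the surrogate light chain genes and Cd79a, stood at 18.3 FPKM in 4-OHT and 40.5 FPKM in ethanol, and Spib, an Ets factor gene, at 20.1 FPKM in 4-OHT and 44.8 FPKM in ethanol. Tcf3, which encodes E2A, stood at 73.2 FPKM in 4-OHT and 121 FPKM in ethanol (log2 ratio -0.71). Bcl6, whose product is a repressor induced by pre-B cell receptor signalling, was the one gene at least 2-fold higher, at 10.2 FPKM in 4-OHT and 4.03 FPKM in ethanol. Sfpi1, the gene of PU.1, which myeloid cells express at high levels, stood at 167 FPKM in 4-OHT and 86.3 FPKM in ethanol (log2 ratio 0.94). Of the 11 immunoglobulin names looked for, 1 was found, the J chain gene Igj, at 5.28 FPKM in 4-OHT and 19.6 FPKM in ethanol, and the mu heavy chain was not analysed here.

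Most compared genes next to the 5 receptor genes that were at least 2-fold lower had log2 ratios closer to 0 than theirs. On mm9, Igll1 and Vpreb1 lie next to each other, 4416 bases apart, and Vpreb2 lies 1111.3 kb beyond on the same chromosome. Beside Vpreb1, Top3b, a topoisomerase gene 1636 bases away, had a log2 ratio of -0.33, and the genes that flank Vpreb2, Slc25a1 and Dgcr6, had -0.47 and -0.60. Arhgef1, 789 bases from Cd79a, was near equal at -0.03. The exceptions were Vpreb1, beside Igll1, and Chchd10, a gene of a mitochondrial protein 10578 bases from Vpreb3, which stood at 71.0 FPKM in 4-OHT and 191 FPKM in ethanol (log2 ratio -1.42, below that of Vpreb3). Beside Btk, Timm8a1 and Gla had log2 ratios of -0.77 and 1.14 on either side of its -0.19. Flanking rows were looked up after the values were seen.

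The 3 compared rows whose levels in both conditions lay nearest to the mean of Vpreb1, Vpreb2 and Igll1 were Slc7a5, Chchd10 and Gm525. Slc7a5, a transporter gene for large amino acids, stood at 63.5 FPKM in 4-OHT and 174 FPKM in ethanol (log2 ratio -1.44). Gm525 stood at 53.6 FPKM in 4-OHT and 148 FPKM in ethanol (log2 ratio -1.45). The distances, in log2 of FPKM + 1 over 2 values per gene, were 0.48 for Slc7a5, 0.56 for Chchd10 and 0.56 for Gm525, and with 2 values such likeness is weak.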

How the data were processed

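The study sequenced 3 libraries of 4-OHT and 3 of ethanol cells. CASAVA, TopHat2 2.0.9, Cufflinks 2.1.1 and build mm9 are named in the submitters' processing notes. The deposited table holds 1 FPKM value per gene and condition, computed by the authors, and the sources used here do not say how libraries were pooled or scaled. The log2 fold change deposited by the authors equals the log2 of 4-OHT over ethanol, within 0.01 in all 15756 rows above 0 in both. With 1 value per condition no test, SD or interval can be given, and read depth is unknown.

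The log2 ratio used a pseudocount of 1 FPKM, a minimum mean of 1 FPKM and a 2-fold line. Genes and lists were chosen with earlier results of these data known. Named were the 9 genes, the 2 most abundant and all 2-fold members of each list, and the 3 nearest rows, while others were chosen after their values were seen. A few genes that the lists count are not reported here. Loci are on mm9, with 1 added to each start, since lengths then equalled those of RefSeq genes in 6341 of 18851 matched rows, against 437 otherwise. Promoter windows are from RefSeq (GRCm38.p6) and were matched by symbol for 8 of the 9 genes. Transcripts were aligned with Biopython 1.88. Other software was matplotlib 3.10.9, pandas 2.3.3, numpy 2.4.6 and Python 3.11.15, and the ratios, calls and motif search were tested on simulated data.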

Additional observations from a re-analysis of the deposited data

How the results depend on the processing

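The other filters (no minimum, a minimum mean of 5 FPKM, no merged rows or small RNAs) leave the ratio of each of the 9 genes as it is. Of their 45 values under the 5 alternatives that change the ratios, other than scaling to the B-lineage median, 44 kept their direction and their side of the 2-fold line. The exception was Vpreb3 under median-of-ratios scaling (log2 ratio -0.99). Scaling to the B-lineage median put the log2 ratios at -0.27 for Vpreb3, -0.95 for Igll1, -0.80 for Cd79a, 0.00 (-0.0023) for Cd79b, 0.27 for Blnk, 0.60 for Btk and 1.29 for Syk. On that scale 2 of the 9 genes were at least 2-fold lower and 1 higher, against 23 and 3571 of all compared rows, and the list medians were 0.58 (kinases), 0.89 (adaptors and effectors), 0.79 (inhibitors) and 0.15 (regulators). It shifts the median of all compared rows to 0.73 by construction. The B-lineage median itself was -0.72 with a minimum mean of 5 FPKM and -0.97 by the authors' log2 fold changes. Of all compared rows, 457 were at least 2-fold lower when 0.1 FPKM was added in place of 1, and 482 by the log2 fold changes in the authors' deposited table. The count at least 2-fold higher was 700 with a minimum mean of 5 FPKM, where 8129 rows were compared. At 1.5-fold the counts were 1390 lower and 2121 higher. The sum of Vpreb1 and Vpreb2 gave -2.35, against a mean of -2.31 for the genes taken apart.

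No paired analysis was possible because each condition has 1 pooled value per gene, and no library was left out in turn for the same reason. Without counts the precision of FPKM is not known.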

Other observations

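Among 13 stage genes of pro-B and pre-B cells found in the table, 10 were lower in 4-OHT and 3 were at least 2-fold lower. Of all 10856 compared rows, 5981 were lower and 280 at least 2-fold lower. The median log2 ratio of the stage genes was -0.39, or 0.40 relative to the B-lineage genes, against 0.73 for all compared rows. Myl10, a myosin light chain gene, stood at 38.1 FPKM in 4-OHT and 373 FPKM in ethanol, and its log2 ratio of -3.26 was below that of every receptor gene. Il2ra, the CD25 gene that marks pre-B cells with a functional receptor, stood at 17.1 FPKM in 4-OHT and 34.3 FPKM in ethanol (log2 ratio -0.97). Cd2, a surface gene of pre-B cells, stood at 12.1 FPKM in 4-OHT and 30.2 FPKM in ethanol, and Erg, an Ets factor gene, at 7.08 FPKM in 4-OHT and 16.6 FPKM in ethanol. Cd24a, the most abundant, stood at 273 FPKM in 4-OHT and 451 FPKM in ethanol (log2 ratio -0.72).

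The genes of V(D)J recombination in that list were closer to equal. Rag1 stood at 28.7 FPKM in 4-OHT and 29.3 FPKM in ethanol, Rag2 at 4.64 FPKM in 4-OHT and 6.40 FPKM in ethanol, and Dntt at 8.80 FPKM in 4-OHT and 11.1 FPKM in ethanol. Il7r, the interleukin 7 receptor gene, stood at 66.7 FPKM in 4-OHT and 77.6 FPKM in ethanol. Kit, a receptor gene of progenitors and mast cells, was the one gene of this list at least 2-fold higher, at 5.01 FPKM in 4-OHT and 0.866 FPKM in ethanol. Of these, Il2ra, Rag1, Rag2, Dntt and Il7r were chosen after their values were seen.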
